A study of Rattus norvegicus with 8 samples.

Results

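The genes described here write and erase DNA methylation, together with the proteins that read it. They were chosen by name: the DNA methyltransferases Dnmt1, Dnmt3a and Dnmt3b and the dioxygenases Tet1, Tet2 and Tet3, each sought as a gene symbol in the deposited tables of 17168 genes. The rule found 3 of the 6, which were Dnmt1, Dnmt3a and Dnmt3b. Tet1, Tet2 and Tet3 were not analysed here, so the erasers are represented only by genes that act around them. None of the 6 is a reader, and the readers come from a separate list of methyl-CpG binding genes, of which 7 are reported here.

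The samples were homogenates of medial prefrontal cortex, a frontal region that takes part in withholding actions, from male Sprague-Dawley rats, an outbred strain; age was not given. The 8 libraries form a single comparison of 4 from highly impulsive rats (HI, for high motor impulsivity) with 4 from rats of low motor impulsivity (LI), scored by premature responses in a 1-choice serial reaction time task. The top quartile of that score defined HI and the bottom quartile LI, with no drug or genetic manipulation named in the labels. The comparison asks which transcripts differ between rats that differ in inherent impulsivity, and it was RNA that was sequenced, so DNA methylation itself was not measured. The labels give 4 to 6 rats per phenotype and do not state that each library is a separate animal, so the p-values measure the spread between these libraries, which may be partly technical.

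In mammals, methyl groups are placed on cytosines, mostly where a guanine follows. Dnmt1 copies an existing pattern onto the new strand after DNA replication, with Uhrf1 guiding it to hemimethylated sites, while Dnmt3a and Dnmt3b add methyl groups at sites that had none. Tet enzymes oxidise methylcytosine, and base excision repair, opened by the glycosylase Tdg, can then return the site to plain cytosine. In mouse brain, Dnmt3a is the main enzyme that methylates neuronal DNA after birth, and methyl-CpG binding proteins of the Mbd and zinc finger families read the methylated sites.

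Dnmt3b stood far below Dnmt1 and Dnmt3a. On the deposited TPM scale, which corrects for transcript length, Dnmt1 averaged 20.8 ± 2.50 and Dnmt3a 20.4 ± 3.65 over the 8 libraries, whereas Dnmt3b averaged 0.927 ± 0.385 (SD, n = 8). Dnmt1 ranged from 17.2 to 25.8 TPM, Dnmt3a from 14.2 to 25.02 TPM and Dnmt3b from 0.41 to 1.49 TPM. Dnmt1 and Dnmt3a could not be ordered, since Dnmt1 was the higher of the pair in 5 of 8 libraries, with a mean within-library difference in level of 0.040 ± 0.23 log2 units (SD, two-sided exact sign-flip permutation p = 0.680). Dnmt3b lay below both in 8 of 8 libraries. Dnmt1 exceeded it 21.6-fold and Dnmt3a exceeded it 21.1-fold on the log2(TPM + 0.1) scale, each with an exact permutation p of 0.00781, the smallest that 8 libraries allow, and 0.0117 after adjustment over the 3 pairs. Dnmt3l, the catalytically inactive partner of the Dnmt3 enzymes, had 0 counts in all 8 libraries, which at a limit of 3 counts allows from 0.310 to 0.496 CPM in a library, CPM being counts per 1000000 of the scaled library, with no correction for length.

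Depth sets how firmly each gene can be read. Over the 8 libraries the rounded counts came to between 351 and 585 for Dnmt1 and between 227 and 472 for Dnmt3a in each library, but between 8 and 29 for Dnmt3b. Dnmt1 is listed with 1 transcript of 5917 bases, Dnmt3a with 2 transcripts summed and a mean length of 4173 bases, and Dnmt3b with 1 transcript of 4289 bases. Isoforms of Dnmt3a were therefore not told apart. The transcript listed for Dnmt3b had no match among current gene symbols, while those listed for Dnmt1 and Dnmt3a matched their own. The identity of the Dnmt3b counts thus rests on the deposited gene symbol alone. The expected counts of Dnmt3a and Dnmt3b were whole to within 0.005 in every library, while those of Dnmt1 were not. Fractions can arise when reads that match more than 1 transcript are divided. The share of such reads was not measured, so how far they bear on the level of Dnmt1 is not known.

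Between HI and LI, none of the 3 methyltransferases passed the threshold, an adjusted p under 0.1 when all genes were tested with the quasi-likelihood method of edgeR. Nor did any other gene, 0% of 11631 being called; 484 had an unadjusted p under 0.05. Dnmt3b, a de novo methyltransferase best known from early development, had the largest difference of the 3. It stood at 1.03, 1.32, 0.850 and 2.13 CPM in HI libraries 1 to 4, against 2.71, 2.27, 1.91 and 3.04 CPM in LI libraries 1 to 4. The HI libraries were lower apart from HI4, which lay above LI3 and below the other 3 LI libraries. The HI mean was 1.33 ± 0.565 CPM and the LI mean 2.48 ± 0.492 CPM (SD, n = 4 each), and the edgeR log2 fold change, HI over LI, was -0.92 ± 0.34 (SE), or 0.529-fold with a 95% interval of 0.313 to 0.894. By edgeR the unadjusted p was 0.0222 and the adjusted p 1.00, and the two-sided exact permutation p was 0.0571.

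Dnmt3b was thus 1 of 3 measured members with an unadjusted p under 0.05, where 4.16% of all tested genes had one and 1.09% had one with a lower level in HI, and by its p it ranked 235 among the 11631. It cleared the low-count filter only through LI: the minimum was reached in 1 HI library and 4 LI libraries. With no filter its log2 fold change was also -0.92. The rounded counts behind it were 10, 8, 8 and 16 in HI libraries 1 to 4, against 26, 18, 15 and 29 in LI libraries 1 to 4. They summed to 42 in HI (exact Poisson 95% interval 30.3 to 56.8) and 88 in LI (70.6 to 108), intervals that cover counting error only. Leaving out HI4 gave a log2 fold change of -1.24, and leaving out HI3 gave -0.74. The unadjusted edgeR p was 0.0608 without HI1, 0.0679 without HI3, 0.0512 without LI1 and 0.0643 without LI4, so it did not stay under 0.05 when any of these was left out.

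Dnmt3a, the de novo enzyme of mature neurons, stood at 48.8, 47.8, 36.2 and 46.1 CPM in HI libraries 1 to 4, against 35.1, 40.3, 29.0 and 43.4 CPM in LI libraries 1 to 4. The groups overlapped, with HI3 low in its group and LI3 lowest of all. The HI mean was 44.7 ± 5.78 CPM and the LI mean 36.9 ± 6.30 CPM (SD, n = 4 each). The log2 fold change was 0.27 ± 0.16 (SE), with a 95% interval of -0.074 to 0.62 (edgeR, unadjusted p = 0.110, adjusted p = 1.00; exact permutation p = 0.143). Without LI3 the log2 fold change was 0.18, and without HI3 it was 0.36 (edgeR, unadjusted p = 0.0472).

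Dnmt1, the maintenance enzyme, stood at 58.8, 58.0, 58.0 and 72.1 CPM in HI libraries 1 to 4, against 50.4, 59.8, 57.4 and 61.3 CPM in LI libraries 1 to 4. All HI libraries except HI4 lay within the LI range. The HI mean was 61.7 ± 6.94 CPM and the LI mean 57.2 ± 4.83 CPM (SD, n = 4 each), and the log2 fold change was 0.11 ± 0.12 (SE) with a 95% interval of -0.15 to 0.37 (edgeR, unadjusted p = 0.377, adjusted p = 1.00; exact permutation p = 0.486). Without HI4 it was 0.026, and without LI1 it was 0.048.

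**Figure D1:**
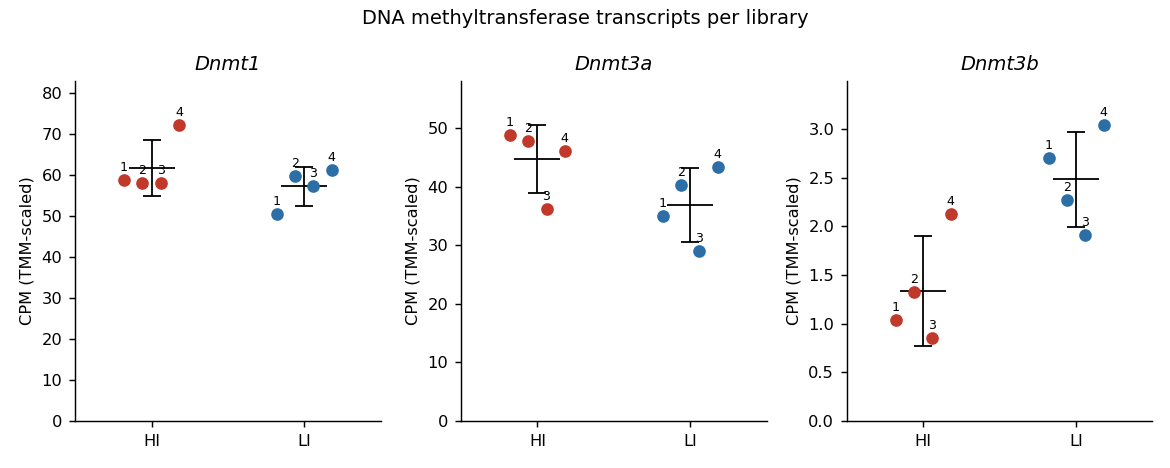
Level of each methyltransferase (y axis, TMM-scaled CPM, from 0) in the 4 HI and 4 LI libraries; each numbered point is 1 library, the long bar the group mean and the error bar 1 SD. For Dnmt3b 3 HI libraries lie below every LI library and HI4, at 2.13 CPM, lies inside the LI range; for Dnmt1 HI4 stands at 72.1 CPM, above all others.

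Fisher's exact test on counts summed within each group, which the series' design text names, gave another count. It called 2 of the 3, Dnmt3a higher and Dnmt3b lower in HI, but it called 56.8% of all genes tested; it takes no account of the spread between libraries. DESeq2, an alternative with a spread between libraries, called 0 of the 3 and 0.488% of the genes to which it gave an adjusted p, and it gave none to Dnmt3b.

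The balance of the 3 transcripts within a library does not depend on how libraries are scaled. This ratio was chosen after the counts were seen and is a description, with no test. For every 100 Dnmt3a counts there were 2.12, 2.77, 2.35 and 4.62 Dnmt3b counts in HI libraries 1 to 4, against 7.72, 5.64, 6.61 and 7.005 in LI libraries 1 to 4. All 4 HI libraries lay below all 4 LI libraries, HI4 included. Since Dnmt3b was lower and Dnmt3a higher in HI on average, dividing Dnmt3b by Dnmt3a widens the gap by construction. Dnmt3b by itself overlapped, with HI4 at 2.13 CPM and LI3 at 1.91 CPM, and LI3 was also lowest for Dnmt3a, at 29.0 CPM. Among single tested genes 3.46% had no overlap between HI and LI, and the share among ratios of genes was not computed. The HI libraries averaged 2.96 ± 1.14 and the LI libraries 6.74 ± 0.865 (SD, n = 4 each). Per 100 Dnmt1 counts there were 1.76, 2.28, 1.47 and 2.95 Dnmt3b counts in HI libraries 1 to 4. In LI libraries 1 to 4 there were 5.37, 3.80, 3.33 and 4.96, without overlap. Both ratios hold the same Dnmt3b counts, so the second is not a separate result. The ratio of Dnmt3a to Dnmt1 counts overlapped between the groups, with a mean of 72.9 ± 11.3 per 100 for HI libraries and 64.5 ± 9.50 per 100 for LI libraries (SD, n = 4 each).

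**Figure D2:**
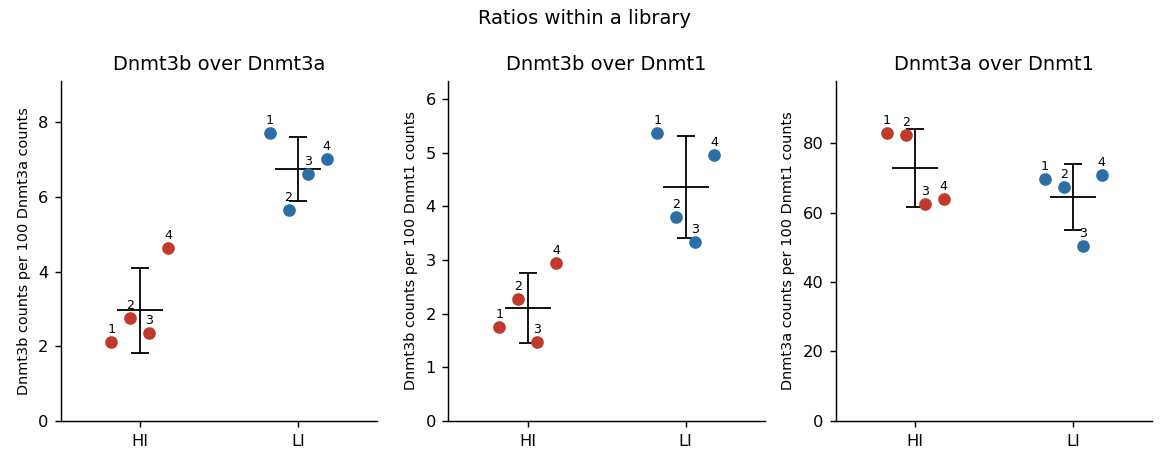
Counts of one methyltransferase per 100 counts of another in the same library (y axis, from 0) in HI and LI; each numbered point is 1 library, the long bar the group mean and the error bar 1 SD. Dnmt3b over Dnmt3a reaches at most 4.62 in HI and at least 5.64 in LI, while Dnmt3a over Dnmt1 overlaps.

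The methyl-CpG readers went in both directions. Of the 7 reported here, 3 had higher and 4 lower values in HI, 0 passed the edgeR threshold, and 0 had an unadjusted p under 0.05, which 4.16% of tested genes had. Their median log2 fold change was -0.0078, beside -0.0069 over all tested genes.

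On TMM-scaled CPM, a pair of readers separated the groups in opposite directions without passing the test. On the deposited TPM scale both overlapped. For Zbtb33, HI2 at 12.1 TPM lay below LI3 at 12.4 TPM. For Mbd3, HI1 at 160 TPM lay above LI3 at 154 TPM. Zbtb33, which encodes the methyl-CpG binding repressor Kaiso, stood at 16.9, 15.4, 16.6 and 16.5 CPM in HI libraries 1 to 4, against 11.03, 10.98, 15.2 and 14.3 CPM in LI libraries 1 to 4. All HI values were above all LI values, although HI2 and LI3 were close. Its log2 fold change was 0.34 ± 0.15 (SE). Mbd3, a NuRD subunit of the methyl-CpG binding domain family that itself binds methylated DNA weakly, stood at 125, 118, 124 and 90.1 CPM in HI libraries 1 to 4, against 153, 128, 126 and 148 CPM in LI libraries 1 to 4. All HI values were below all LI values, HI4 being the lowest, although HI1 and LI3 were close. Its log2 fold change was -0.28 ± 0.13 (SE), and -0.18 without HI4. The unadjusted edgeR p was 0.0505 for Zbtb33 and 0.0615 for Mbd3. The exact permutation p was 0.0286 for each gene, the smallest that 4 against 4 allows and the value that any such gap gives. Such a gap between groups occurred in 3.46% of tested genes, with HI above in 2.31% and HI below in 1.14%.

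The other 5 readers overlapped between HI and LI. Zbtb38, a second zinc finger reader, differed by a log2 fold change of 0.26 ± 0.14 (SE), and by 0.16 without LI1. Uhrf1, the partner of Dnmt1, was low, with a mean of 4.71 ± 0.606 CPM for HI libraries and 5.84 ± 1.97 CPM for LI libraries (SD), with LI2 highest at 8.33 CPM, and its log2 fold change of -0.31 ± 0.27 (SE) was -0.091 without LI2 and -0.48 without LI4. Its relative Uhrf2 had means of 74.3 ± 3.77 CPM for HI libraries and 74.7 ± 2.21 CPM for LI libraries, with a 95% interval for the log2 fold change of -0.22 to 0.20. Mbd1 had a 95% interval of -0.23 to 0.26. Mbd2 varied widely within the groups, with means of 47.2 ± 17.3 CPM for HI libraries and 48.2 ± 12.4 CPM for LI libraries, with a 95% interval of -0.61 to 0.55. The small log2 fold changes of Mbd1, Mbd2 and Uhrf2 changed sign when single libraries were left out.

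**Figure D3:**
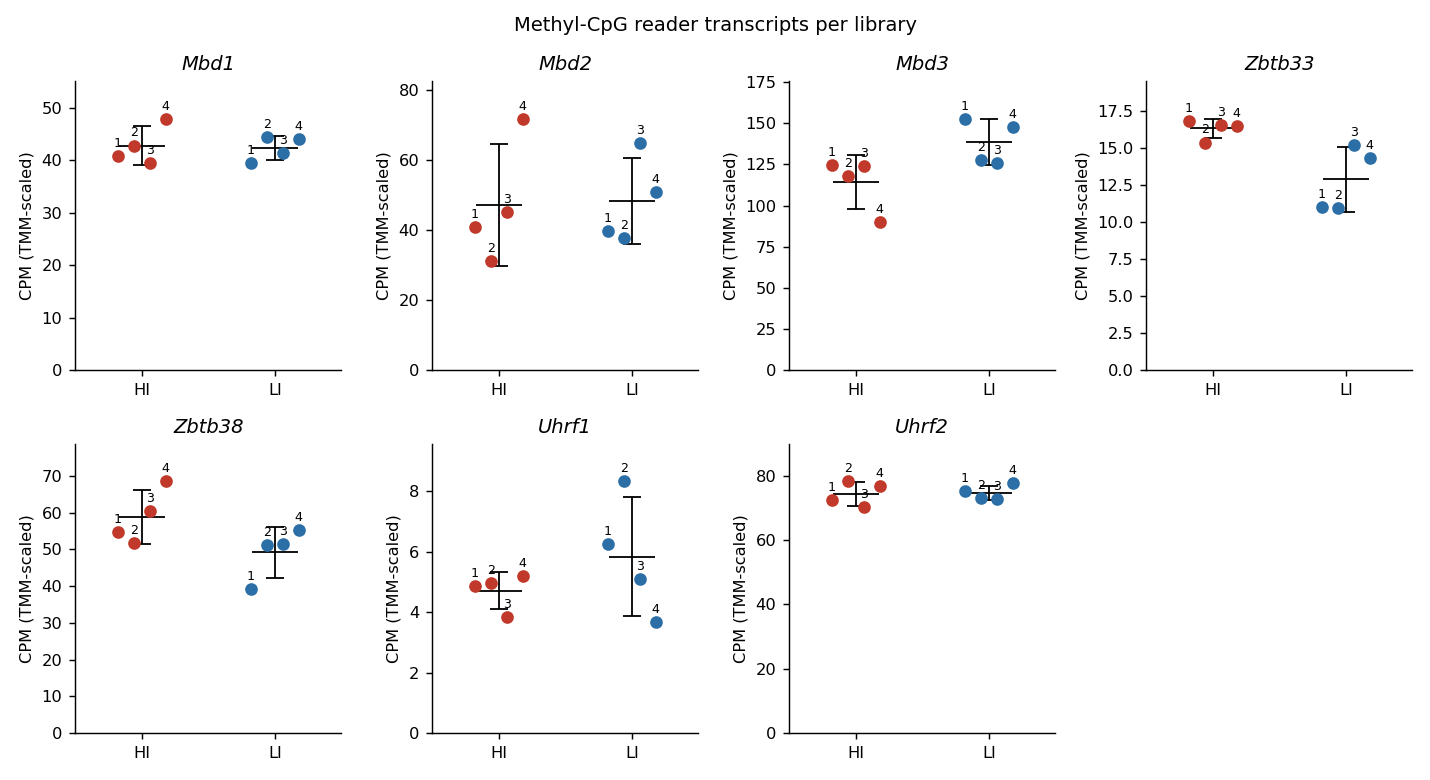
Level of the 7 methyl-CpG readers reported here (y axis, TMM-scaled CPM, from 0) in the 4 HI and 4 LI libraries; each numbered point is 1 library, the long bar the group mean and the error bar 1 SD. On this scale Zbtb33 has all HI above all LI, at 15.4 CPM or more, and Mbd3 has all HI below all LI. On the deposited TPM scale both overlap.

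The readers and the genes that act with the writers, erasers and readers showed no common direction. In 7 lists of 89 genes in all, the readers included, 78 were measured and 73 tested, of which 38 had higher and 35 lower values in HI, 0 passed the edgeR threshold and 1 had an unadjusted p under 0.05, which 3.07% of tested genes had with a higher level in HI. Their median log2 fold change was 0.013. That gene was Mtr, methionine synthase, which regenerates methionine for the methyl donor S-adenosylmethionine. Mtr stood at 17.2, 14.9, 12.6 and 16.2 CPM in HI libraries 1 to 4, against 11.5, 14.5, 9.06 and 10.5 CPM in LI libraries 1 to 4, with LI2 inside the HI range. Its log2 fold change was 0.42 ± 0.18 (SE; edgeR, unadjusted p = 0.0428, adjusted p = 1.00). The unadjusted edgeR p of Mtr stayed under 0.05 only without HI3 (0.0290) or LI2 (0.0119) when single libraries were left out; otherwise it lay between 0.0589 (without HI2) and 0.112 (without HI1), and it was 0.0690 with ribosomal RNA as a covariate and 0.149 with no scaling factor.

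In the methyl donor cycle 5 of 14 tested genes were higher in HI and 9 lower, with a median log2 fold change of -0.046. After Mtr the smallest p-values belonged to Ahcyl2 (log2 fold change 0.14 ± 0.10, SE), related to the enzyme that hydrolyses S-adenosylhomocysteine, and to adenosine kinase, Adk (-0.18 ± 0.13, and -0.094 without HI3). Of 14 base excision and demethylation genes 8 were higher and 6 lower, with a median of 0.021. Gadd45g and Gadd45b, activity-induced genes linked to demethylation in mouse brain, differed by 0.40 ± 0.19 (0.26 without HI1) and 0.29 ± 0.17. The cytidine deaminase gene Apobec1 differed by -0.36 ± 0.30 (-0.23 without HI2), and Tdg by -0.024 ± 0.13. None of these passed the adjusted threshold.

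Among 11 tested partners of the writers 5 were higher and 6 lower, with a median of -0.050. Those with the smallest p were Pcna, the replication clamp (-0.15 ± 0.14, and -0.090 without LI2), Cbx5, heterochromatin protein 1 alpha (0.25 ± 0.24, and -0.037 without HI4), and the histone methyltransferase gene Ehmt1 (0.14 ± 0.16, and between 0.060 and 0.28 with single libraries left out). Of 12 corepressor subunits 9 were higher and 3 lower, with a median of 0.058. The NCoR scaffold Ncor1 (0.29 ± 0.19), the NuRD subunit Gatad2b (0.29 ± 0.20) and the NCoR subunit Tbl1xr1 (0.18 ± 0.15) led them, and were 0.072, 0.082 and 0.075 without HI4. Of 6 CXXC zinc finger genes, whose proteins bind unmethylated CpG, 3 were higher and 3 lower, with Kdm2b at 0.14 ± 0.11, Kdm2a at 0.18 ± 0.14 (0.071 without HI4) and Cxxc1 at -0.12 ± 0.13 (-0.026 without LI4 and -0.19 without HI4). Of 9 genes for the Tet cofactor 2-oxoglutarate and for O-GlcNAc cycling, a modification carried by Tet proteins, 5 were higher and 4 lower. They were led by mitochondrial isocitrate dehydrogenase, Idh2 (-0.22 ± 0.12), the O-GlcNAcase gene Mgea5 (0.18 ± 0.13, and 0.078 without HI4) and the 2-oxoglutarate dehydrogenase gene Ogdh (0.12 ± 0.10, and 0.072 without LI1). All of these values are log2 fold changes, HI over LI, with SE.

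**Figure D4:**
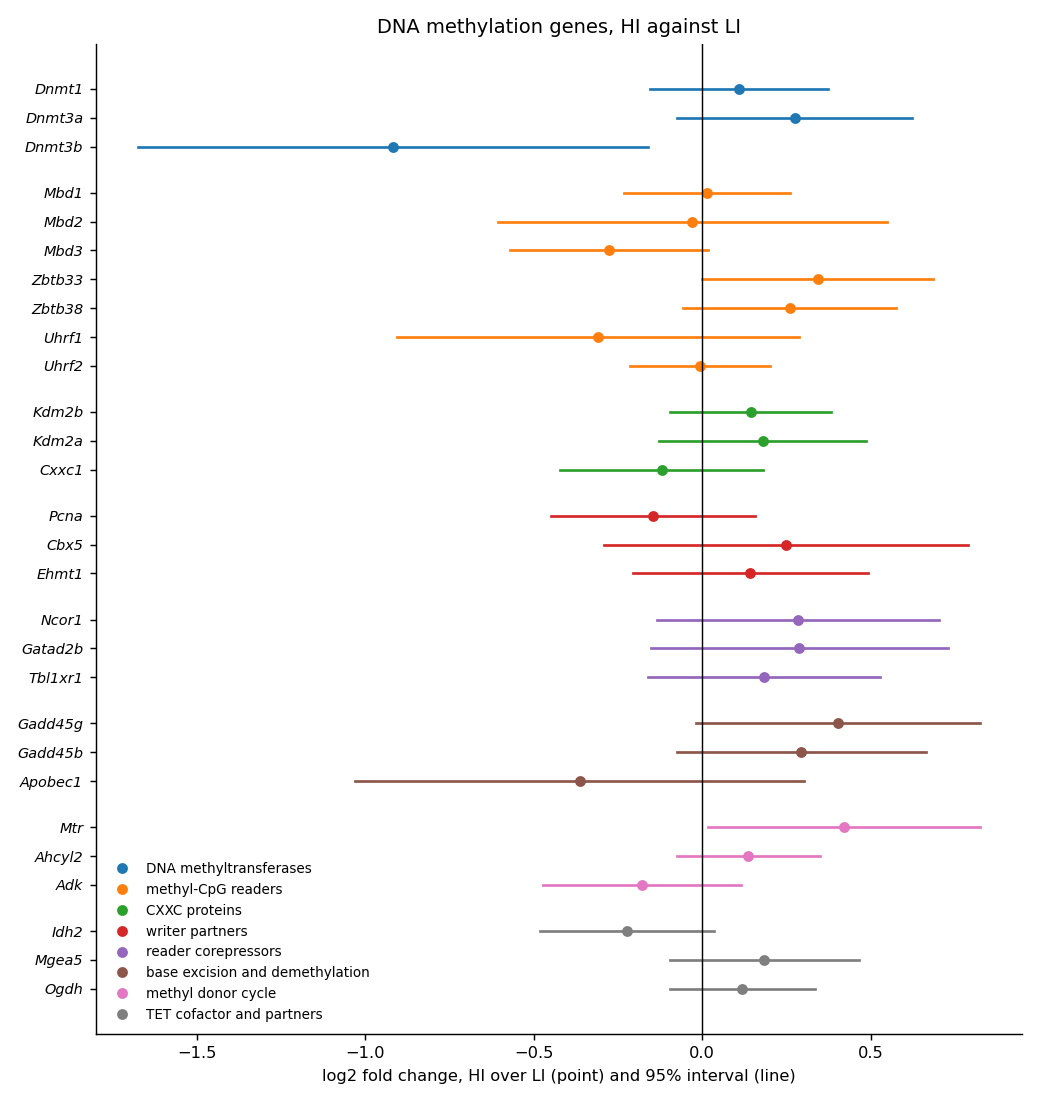
Log2 fold change, HI over LI (x axis; point), with its unadjusted 95% interval (line) for the 3 methyltransferases, the 7 readers and the 3 genes with the smallest p of each other list, coloured by list. The intervals of Dnmt3b (below 0) and Mtr (above 0) leave out 0, and none of these genes passed the adjusted threshold.

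Library properties were set beside these values. Over the 12 relations computed, among the methyltransferases and with such properties, the smallest adjusted exact permutation p was 0.250. Total counts ranged from 7354416 to 9476656 per library, ribosomal RNA took between 0.406% (HI4) and 25.5% (HI2) of counts in HI libraries and between 0.418% (LI3) and 6.42% (LI2) in LI libraries, and no pair of libraries was identical. HI4 and LI3 stood apart on the first principal component. With both left out, a choice made after seeing the data, the log2 fold change of Dnmt3b was -1.35, of Dnmt3a 0.16 and of Dnmt1 0.028. Each library also had a slope of log2 CPM on transcript length, the relative gain per doubling of length, with means of 0.031 ± 0.065 for HI libraries and -0.031 ± 0.036 for LI libraries (SD, exact permutation p = 0.0857), HI4 being highest at 0.13 and LI1 lowest at -0.081. Over the 8 libraries the level of Dnmt1 had a Pearson's r of 0.91 with that slope (exact permutation p = 0.0209, adjusted p = 0.250 over the 12 relations computed) but a Spearman's rho of 0.26 (exact permutation p = 0.536, adjusted p = 0.793), and its r was -0.85 without HI4 and LI1, so that relation rested on those libraries. Dnmt3a had an r of 0.34 and a rho of 0.31 with the slope (exact permutation p = 0.409 and p = 0.462, adjusted p = 0.739 and 0.793), and r was -0.20 without HI4 and LI1. Dnmt3b had an r of -0.13 and a rho of -0.50 (exact permutation p = 0.770 and p = 0.216, adjusted p = 0.840 and 0.793), and r was -0.54 without them. With the length trend of each library removed, the log2 fold change was 0.0025 for Dnmt1, 0.22 for Dnmt3a and -0.90 for Dnmt3b (limma).

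**Figure D5:**
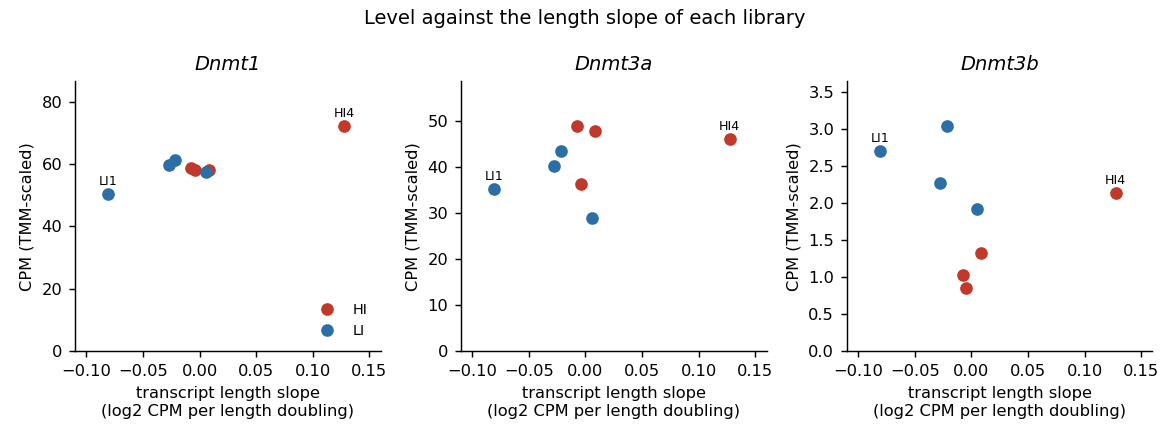
Level of Dnmt1, Dnmt3a and Dnmt3b (y axis, TMM-scaled CPM, from 0) against the transcript length slope of the library (x axis, log2 CPM per doubling of length); each point is 1 library, HI in red and LI in blue, with HI4 and LI1 named. For Dnmt1 HI4 lies highest, at 72.1 CPM, and LI1 lowest, at 50.4 CPM, with the other 6 libraries close together; Dnmt3a and Dnmt3b show no such order.

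Markers of the cells in the homogenate placed these levels. Genes of cortical excitatory neurons were abundant in both groups, with Nrgn, Camk2a and Slc17a7 at means of 2794, 1530.0 and 1324 CPM for HI libraries and 3176, 1375 and 1221 CPM for LI libraries. Microglial genes, like Dnmt3b, were lower in HI: 7 of 7 had lower values, as did 5993 of all 11631 tested genes. Their summed level was 225 to 273 CPM over the HI libraries and 288 to 304 CPM over the LI libraries, without overlap. Singly, 1 of the 7 had all HI below all LI, as 1.14% of tested genes had. An unadjusted edgeR p under 0.05 was found for 1, and none passed the edgeR threshold. No correlation of their sum with Dnmt3b was computed. HI4 had the lowest sum but the highest Dnmt3b in HI, while in LI both were highest in LI4 and lowest in LI3. The 7 oligodendrocyte genes were also all lower in HI, at a summed 2028 to 2197 CPM over HI libraries and 1724 to 6586 CPM over LI libraries, where LI2 was highest. Meningeal and fibroblast genes ran from 71.6 to 874 CPM in HI, with HI1 highest, and from 30.8 to 198 CPM in LI. Of these, 5 of 5 tested were higher in HI, as were 5638 of all 11631 tested genes. Striatal genes, a sign of tissue from the neighbouring striatum, ran from 326 to 370 CPM in HI and from 344 to 833 CPM in LI, with LI2 highest and 7 of 7 lower in HI. Genes of dividing cells, in which Dnmt1 and Uhrf1 are known to be high, were scarce, at a summed 11.4 to 24.5 CPM over HI libraries and 13.2 to 33.7 CPM over LI libraries for 7 genes. Inhibitory neuron genes summed to 626 to 719 CPM over HI libraries and 702 to 920 CPM over LI libraries, with LI1 inside the HI range. Of these 7 genes, 5 were lower and 2 higher in HI, and 1 had an unadjusted edgeR p under 0.05. Summed levels of astrocyte, oligodendrocyte precursor and vascular genes also overlapped between the groups. No marker list was at 0 in any library. The part of these cells in the difference of Dnmt3b was not tested; leaving out LI2, the library with the most oligodendrocyte and striatal RNA, gave it a log2 fold change of -0.96, and leaving out HI1 gave -0.81. In bulk tissue, fewer cells of a type and less RNA per cell cannot be told apart.

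No relation between the patterns of the 3 methyltransferases was established over the 8 libraries, which are too few to tell a moderate relation from none. Pearson's r of log2 CPM was 0.47 between Dnmt1 and Dnmt3a (Spearman's rho 0.62), 0.031 between Dnmt1 and Dnmt3b (rho 0.24) and -0.17 between Dnmt3a and Dnmt3b (rho -0.24), with exact permutation p-values of 0.223, 0.950 and 0.698 for r and of 0.115, 0.582 and 0.582 for rho, and adjusted p-values of 0.739 or more. Without the 2 libraries farthest out on the second gene of each pair, r was 0.24, -0.083 and -0.18. Among all tested genes, those most like Dnmt1 were Utrn, which encodes utrophin, the transcription factor gene Foxn3 and the leukocyte sialophorin gene Spn, with r from 0.96 to 0.97, and the most opposite was the kinase gene Stk16, with an r of -0.98. Those most like Dnmt3a were Lpin1, a phosphatidate phosphatase gene, the Argonaute gene Ago3 and the cadherin gene Cdh20, with r from 0.93 to 0.94, and the most opposite was Csnk2b, the regulatory subunit of casein kinase 2, at -0.94. Those most like Dnmt3b were Sh3bp2, which encodes an SH3-binding adaptor, Sdccag3 and Invs, which encodes inversin, with r from 0.93 to 0.94. The most opposite to Dnmt3b was Cbfa2t2, a transcriptional corepressor gene, with an r of -0.98. Its means were 40.4 ± 2.48 CPM for HI libraries and 34.5 ± 1.24 CPM for LI libraries (SD), with all HI above all LI, as in 2.31% of tested genes. Because it was picked as most opposite to a gene lower in HI, that gap is not a separate result. These correlations are the extremes of all other tested genes over 8 libraries that differ in depth, ribosomal RNA share and length slope, and are a description only.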

How the data were processed

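RNA-seq was measured in 8 libraries, 4 HI and 4 LI. Per the file headers, the authors' deposited tables hold expected counts, TPM and FPKM per gene; FPKM values were not used. RNA extraction used TRIzol and RNeasy columns, and library construction a standard Illumina method, per the labels' protocols. The submitters' processing notes name Bowtie2 2.1.0; the program that counted, the genome build, the annotation and any use of strand were not given in the sources used here. Coordinates are therefore not printed, and overlapping or antisense genes may share reads.

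Expected counts were rounded, filtered with filterByExpr (minimum count 10, minimum total 15), scaled by TMM and compared by edgeR 4.0.16's quasi-likelihood test (R 4.3.3) with Benjamini-Hochberg adjustment over 11631 genes and a threshold of 0.1, the alpha of the series' design text. Each SE was derived from the F statistic and its log2 fold change. CPM are counts per 1000000 on TMM-scaled library sizes; correlations used log2 CPM with prior count 2. Per-gene exact permutation tests were two-sided over 70 assignments. The authors' TPM values, corrected for transcript length, served for levels between genes, with a pseudocount of 0.1; 3 of the 15 planned pairs of methylation genes could be compared. Levels between HI and LI rest on total counts of 7354416 to 9476656. DESeq2 1.42.0, limma 3.58.1, Fisher's exact test, other scalings, filters, covariates and left-out libraries were alternatives. The tests were checked on simulated counts.

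The members and gene lists were chosen with earlier results of these data known. The naming rule takes all members, all measured readers but 1, which is not reported here, the 3 genes with the smallest p in each other methylation list, the 3 most abundant markers of a cell type list, and for each member the 3 genes with the highest and the 1 with the lowest correlation; Tdg, Dnmt3l and the sums of marker lists are given beside it, and Dnmt3b ratios were added after seeing the data.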

Additional observations from a re-analysis of the deposited data

Results flagged for a closer look

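Dnmt1 in library HI4 stood at 72.1 CPM, while the other 3 HI libraries lay between 58.0 and 58.8 CPM. The gap to the nearest of them was 0.940 of the group's range, above the 95% critical value of Dixon's test for 4 samples. It was the 1 such value among 20 sets of 4 libraries (10 genes in HI and in LI), and chance alone gives about 1 in 20. HI4 also had the highest transcript length slope and the least ribosomal RNA of the HI libraries; their part in this value was not tested.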

How the results depend on the processing

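Over 23 alternatives each, Dnmt1, Dnmt3a and Dnmt3b kept their signs, with log2 fold changes, in the alternatives that kept all libraries, of 0.0016 to 0.15, 0.15 to 0.28 and -1.06 to -0.43; the last value is on the log2(TPM + 1) scale, which compresses low values. With single libraries left out they ranged from 0.026 to 0.14, 0.18 to 0.36 and -1.24 to -0.74. In 2 of 69 combinations a methyltransferase passed the threshold, both by Fisher's exact test on summed counts, which called 2 of the 3 and 6602 genes. DESeq2 called 38 genes (36 higher, 2 lower in HI) and none of the 3. It gave Dnmt3b no adjusted p, so Dnmt3b could not have passed in that one of the 69 combinations. Every other alternative called 0 genes; at an unadjusted p under 0.05 there were 484 by edgeR and 549 by DESeq2. With no scaling factor the median of all genes was -0.12, and by Fisher's test -0.11. Signs turned for Mbd1 (-0.10 with no scaling factor and by Fisher's test, -0.056 without HI4 and LI3, -0.047 to 0.051 with single libraries left out), Mbd2 (0.18 with ribosomal RNA as a covariate, -0.30 to 0.14), Uhrf2 (-0.030 to 0.019) and Cbx5 (-0.037 to 0.42); the cause was not tested. The level pairs were the same under every alternative run, 2 of 3 differing. The replicate numbers pair the libraries only by name: same-numbered libraries correlated at -0.053 to 0.54, over 0.1 in 2 of 4 pairs, and 3 of 8 libraries correlated best with their own number. With a replicate block edgeR called 0 genes, and Dnmt3b was at -0.94 (unadjusted p = 0.0183), Dnmt3a at 0.28 (unadjusted p = 0.0451) and Dnmt1 at 0.11, so 2 of the 3 then had an unadjusted p under 0.05. Counts of 8 to 29 limit Dnmt3b more than the other 2.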
